A study of Mus musculus with 16 samples.

Results

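The collagen genes were taken as every gene of the count table whose symbol is made of Col, a number, the letter a and a further number, which gave 44 of 41079 genes. Of these, 34 had enough reads for a test and 10 did not. Liver RNA was sequenced from 16 mice, 4 in each of the groups male CRE-, male LKO, female CRE- and female LKO. All mice were 20 to 22 months old, were on the C57BL/6J background and carried Gcgr, the glucagon receptor gene, with LoxP sites. LKO mice also carried a Cre transgene under the albumin promoter, and CRE- mice lacked it. The albumin promoter is active in hepatocytes, so stellate cells, fibroblasts and endothelium, known as makers of many liver collagens, are not its target. Whether these cells kept an intact receptor gene was not tested. The comparisons ask whether collagen transcripts differ between LKO and CRE- mice of the same sex. The RNA came from whole liver, in which fewer cells of a type and less RNA per cell cannot be told apart.

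Collagens are proteins of the extracellular matrix whose alpha chains wind into a rope-like helix. Fibrillar collagens form the cables of reticular fibres and scars, type IV collagens form the mesh of basement membranes, beaded filament and fibril-associated collagens link these to cells and to each other, and membrane collagens sit in the cell surface. In liver, activated stellate cells and portal fibroblasts are known as the main makers of fibrillar collagen, endothelium contributes basement membrane chains, and hepatocytes make Col18a1.

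Between 33.3M (33268424) and 56.5M (56488920) reads per mouse were counted on genes, with a median of 44.3M. Values below are counts relative to library size (CPM), scaled between libraries by edgeR's trimmed mean method. The targeted gene, Gcgr, was at 190.4, 193, 127 and 189.6 CPM in male CRE- mice and at 117, 136, 129.9 and 160.3 CPM in male LKO mice, replicates 1 to 4. It was at 162, 208, 201 and 180.0 CPM in female CRE- mice and at 48.8, 132, 119 and 93.6 CPM in female LKO mice. Every female LKO mouse lay below every female CRE- mouse, while male CRE- replicate 3 lay within the range of the male LKO mice. The log2 fold change was -0.93 (SE 0.25) in females and -0.37 (SE 0.24) in males, with adjusted p of 0.0443 and 0.671 by edgeR's quasi-likelihood F test, Benjamini-Hochberg adjusted, and the sex difference of -0.57 had an adjusted p of 0.412 in the same test. Leaving out 1 library ended the female call in 13 of the 16 fits, where the log2 fold change ran from -1.11 to -0.69 (the mouse left out for -0.69 was female LKO replicate 1) and the adjusted p by that edgeR test reached 0.136 without female CRE- replicate 2. Reads were counted over all exons together, so reads from the deleted and from the kept part of the gene cannot be told apart. The 6 hepatocyte markers, led by Alb, summed to 68909.7 to 104349 CPM in male CRE- mice, 61986 to 90654 CPM in male LKO mice, 109882 to 132449 CPM in female CRE- mice and 55771 to 90144 CPM in female LKO mice, so the female groups did not overlap, and the median log2 fold change of these genes was -0.16 in males and -0.74 in females.

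Levels of different collagens were compared per kilobase of exon (CPM per kb), since a longer transcript yields more reads. The length was that of all annotated exons of a gene together, not of the transcript made in liver. The order of levels and the ratios between chains thus depend on the annotation. Over all 16 mice Col18a1, a multiplexin whose end fragment is endostatin, stood far above the rest at a mean of 134 CPM per kb. It was followed by Col14a1 at 11.3 and the reticular fibre collagen Col3a1 at 9.86 CPM per kb. In both LKO groups the mean of Col3a1 was the higher (Col14a1 6.90 and 10.8, Col3a1 7.20 and 12.5 CPM per kb in males and females). These differences lay within the spread of the mice (SD 1.23 and 6.82 for Col14a1, 3.18 and 5.05 for Col3a1), so the order of the 2 genes is not set. The type IV chains Col4a1 and Col4a2 were at 6.69 and 5.60 CPM per kb, and the type I chains Col1a2 and Col1a1 at 5.31 and 3.62 CPM per kb. Col5a3, Col6a1 and Col27a1 had means of 5.17, 3.95 and 3.70 CPM per kb, and Col27a1 was above both type I chains in each male group and below both in each female group. Col5a3 was above Col4a1 in male CRE- (6.92 against 6.52) and male LKO mice (6.17 against 4.18). It was below Col4a1 in female CRE- (3.46 against 4.72) and female LKO mice (4.14 against 11.3 CPM per kb). The mean levels of Col4a2, Col1a2 and Col5a3 lie within the spread of the mice and their order is not set by these data. Below Col15a1 at 2.43 CPM per kb came Col6a2, Col5a1, Col5a2 and Col6a3 between 1.64 and 1.35 CPM per kb. Col13a1 was at 0.809 CPM per kb, Col16a1 at 0.683 and Col20a1 at 0.489, and the other 16 collagens tested were between 0.0493 and 0.281 CPM per kb.

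**Figure D1:**
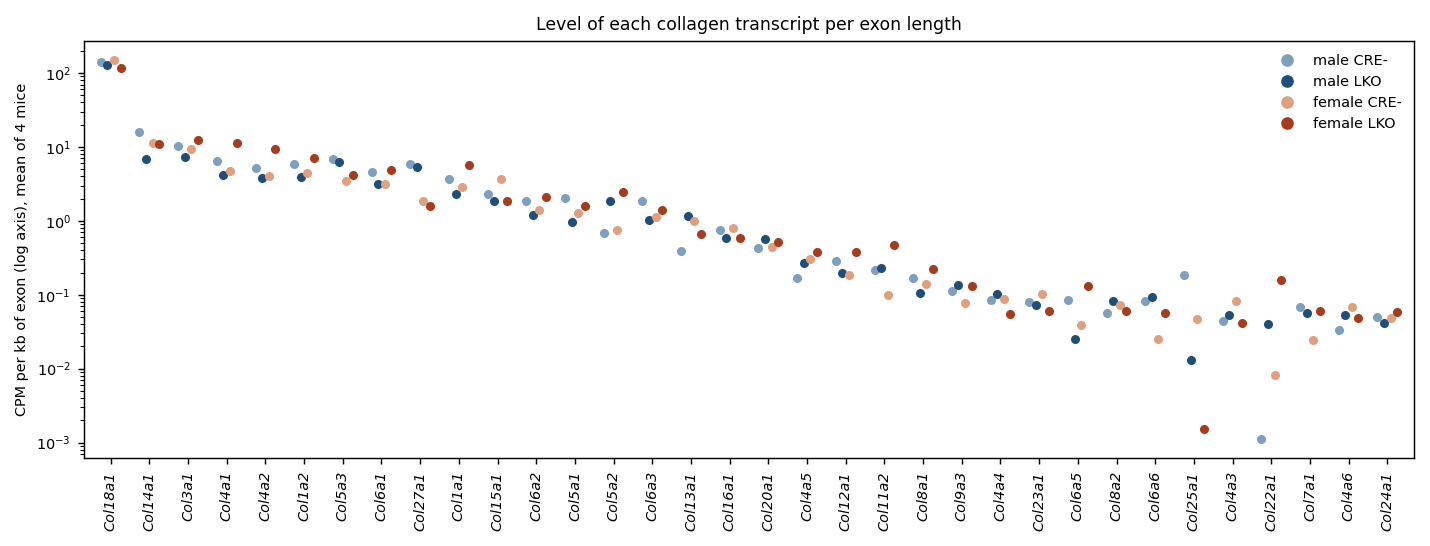
Mean CPM per kb of exon (log axis) of the 34 collagens tested, in order of the mean over all mice, with a point for each group of 4 mice. Col18a1, at 134 CPM per kb over all mice, stands above Col14a1 at 11.3, and the group means of Col27a1 are 5.94 and 5.38 in males against 1.87 and 1.59 in females.

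Of the 10 collagens that were not tested, Col6a4, Col10a1, Col11a1 and Col26a1 had no read in any library. Col17a1 had 46 reads over the 16 libraries, Col9a2 38, Col28a1 36, Col9a1 10, Col19a1 8 and Col2a1 4. Col2a1, Col9a1, Col9a2, Col10a1 and Col11a1 are cartilage collagens, and Col17a1 belongs to the anchoring structures of skin. No fold change is given for these.

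Ratios between chains show how far related collagens moved together. The ratio of Col4a1 to Col4a2 per kb was between 0.902 and 1.35 with a median of 1.20, and that of Col6a1 to Col6a2 between 1.99 and 2.98 with a median of 2.41. Col1a1 to Col1a2 ranged from 0.392 to 0.986 around 0.648, and Col3a1 to Col1a1 from 1.48 to 4.22 around 2.95. The ratio of Col5a2 to Col5a1, both chains of type V collagen, was far wider, from 0.260 to 5.40 around 0.626. It was 5.40 in male LKO replicate 3 and 4.11 in female LKO replicate 4, and no other mouse was above 1.83. Several of these genes are neighbours. Col4a1, on the minus strand of chromosome 8 of GRCm39 from 11248423 to 11362889, and Col4a2, on the plus strand from 11362878 to 11499287, start at the same place in opposite directions. Col4a4 and Col4a3 on chromosome 1, and Col4a6 and Col4a5 on chromosome X, are arranged the same way. Col3a1, on chromosome 1 from 45350698 to 45388866, lies next to Col5a2, from 45413491 to 45542442 on the other strand. Col6a1, Col6a2 and Col18a1 all lie on chromosome 10.

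Some libraries stood apart across many collagens. Male CRE- replicate 3 was the highest of its group for 23 of the 34 collagens (67.6%), and the highest for 32.3% of all genes tested. Female LKO replicate 1 was the highest of its group for 18 collagens (52.9%, against 37.0% of all genes), male LKO replicate 1 for 16 (47.1%, against 31.5%) and female CRE- replicate 1 for 15 (44.1%, against 23.9%). Per kb, the 6 type IV chains summed to 26.5 CPM in male CRE- replicate 3, 31.5 CPM in female LKO replicate 1 and 35.5 CPM in female LKO replicate 4, and to between 5.65 and 10.3 CPM in the other mice. The 10 stellate cell markers, of which Ecm1 was the most abundant per kb and none was without reads, summed to 271, 318, 552 and 350.2 CPM in male CRE- mice and 329, 295, 256 and 292 CPM in male LKO mice. They summed to 292, 439.7, 407 and 401 CPM in female CRE- mice and 277, 325, 280.5 and 184 CPM in female LKO mice. Male CRE- replicate 3 thus had the highest stellate sum and was the highest of its group for most collagens, and female LKO replicate 4, high in type IV chains, had the lowest stellate sum. The part of stellate cell content in the collagen values was not tested.

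**Figure D2:**
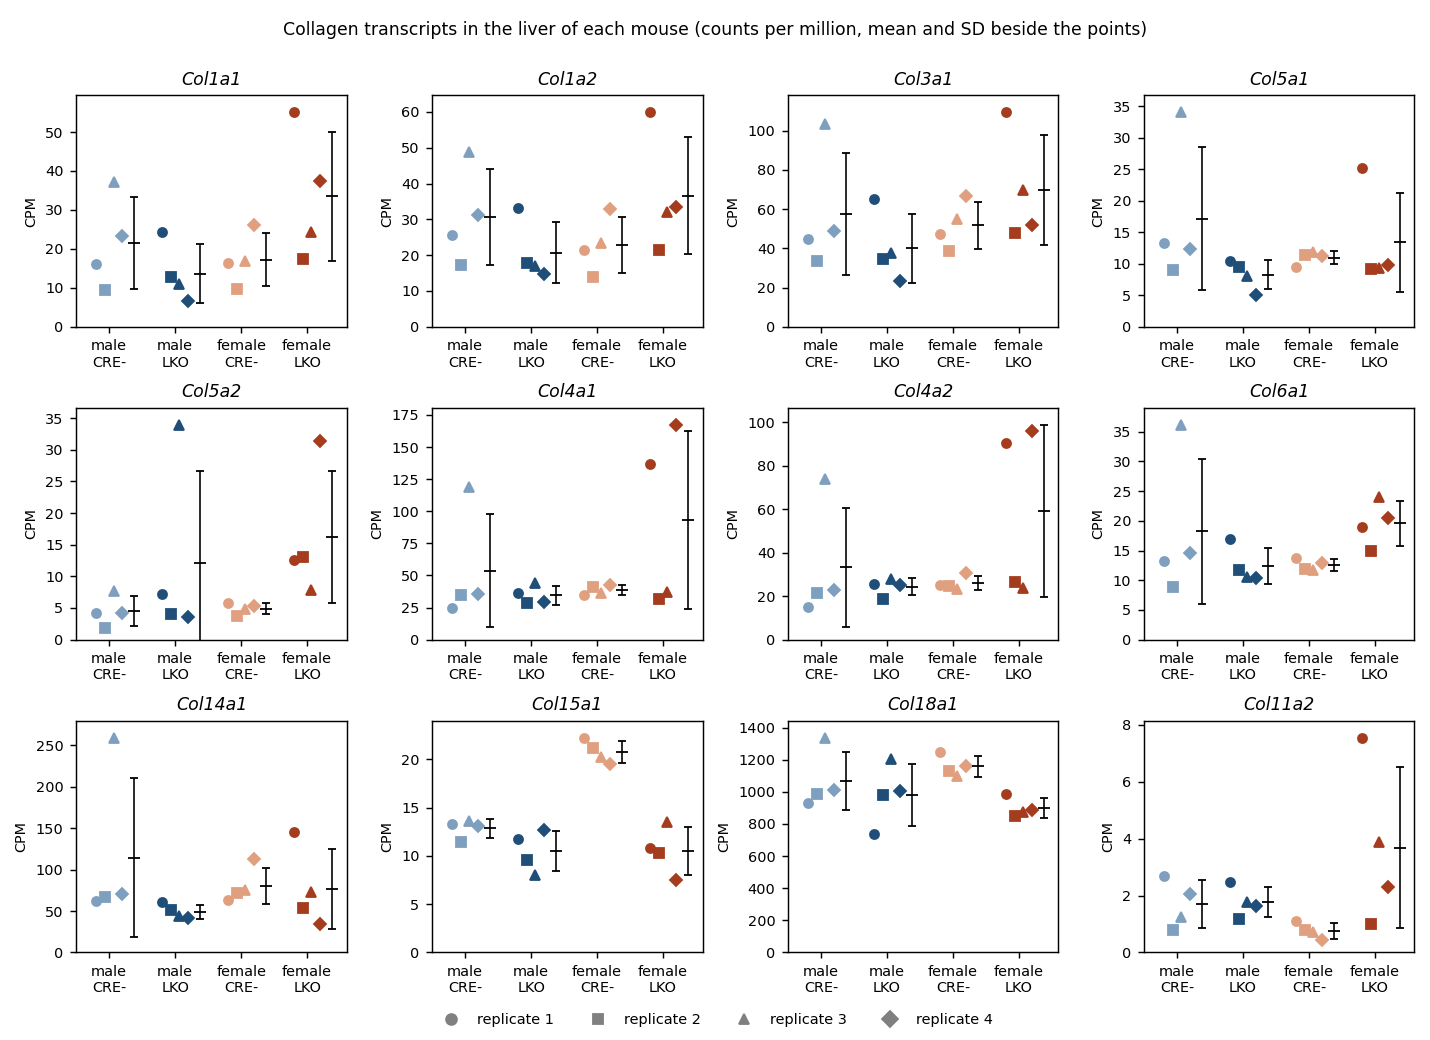
CPM of 12 collagens in each of the 16 mice by group, with replicates 1 to 4 as circles, squares, triangles and diamonds and the mean and SD of the 4 mice beside them (bars are cut at 0). Col15a1 separates female CRE- mice (19.5 to 22.2 CPM) from all others (7.52 to 13.7 CPM), and male CRE- replicate 3 is the highest of its group in most panels.

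In female LKO mice Col15a1 fell, and Col11a2 and Col22a1 rose, while Col1a1, Col1a2, Col3a1, Col4a1, Col4a2, Col6a1, Col6a2 and Col6a3 had log2 fold changes above 0 that did not pass the test. With an adjusted p under 0.05 by edgeR's quasi-likelihood F test, Benjamini-Hochberg adjusted, these were 3 of 34 collagens (8.82%), against 4.24% of all 16742 genes tested. Col22a1 had enough reads for a test through LKO libraries alone. With no filter on low counts edgeR called the same 3, of 40 collagens (7.5%), against 2.16% of all genes. The 2 higher genes compare with 2.09% of all genes called higher, and the 1 lower gene with 2.15% called lower. Without adjustment 8 collagens (23.5%) had p under 0.05, beside 21.4% of all genes. This count ran from 5, without female CRE- replicate 1 or LKO replicate 4, to 12, without male CRE- replicate 3 or female LKO replicate 2. The share of all genes was not counted in those fits, so the range is not read as particular to collagens. The LKO and CRE- mice did not overlap for 5 collagens (14.7%), Col5a2, Col6a1, Col9a3, Col15a1 and Col18a1, against 11.6% of all genes. For Col9a3 this held after scaling only, as the reads of the groups met. The median log2 fold change of the collagens was 0.34, and that of all genes 0.04, with 22 collagens above 0 and 12 below. DESeq2 called 5 collagens, the same 3 with Col5a2 and Col25a1, and limma-voom called 6, the same 3 with Col6a1, Col6a2 and Col12a1. With females fitted alone, however, edgeR called 0 of 32 collagens, without a test of Col22a1, and 0.756% of all genes. In that fit 9 collagens had an unadjusted p under 0.05, and the share of all genes was not counted. Of all genes DESeq2 called 10.8% and limma-voom 11.8%, beside 14.7% and 17.6% of the collagens. With 1 library left out the count was between 1 and 4. It was 1, Col15a1, without female CRE- replicate 2, 3 or 4, when 0.509%, 0.713% and 0.644% of all genes were called, and 4 without male LKO replicate 3 (2.93% of all genes), when Col5a2 joined (adjusted p = 0.0474 by edgeR's quasi-likelihood F test, Benjamini-Hochberg adjusted).

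Col15a1 encodes a multiplexin of the basement membrane zone, found around small vessels. It lies on chromosome 4 of GRCm39 from 47207744 to 47313165. It was at 22.2, 21.1, 20.2 and 19.5 CPM in the female CRE- mice, replicates 1 to 4, and 10.8, 10.3, 13.5 and 7.52 CPM in the female LKO mice. The CRE- range is narrow, the LKO range is wider, and each LKO mouse lay below the lowest CRE- mouse. The means were 20.8 ± 1.15 and 10.5 ± 2.45 CPM (mean ± SD of 4 mice), and the log2 fold change was -0.98 (SE 0.19, adjusted p = 0.0147, edgeR's quasi-likelihood F test, Benjamini-Hochberg adjusted). The call held in all 16 fits with 1 library left out, with log2 fold changes between -1.13 and -0.84 and an adjusted p of at most 0.0499 by that edgeR test, reached without female CRE- replicate 2. With females fitted alone in edgeR the Benjamini-Hochberg adjusted p was 0.0560. Col18a1, the other multiplexin, is on chromosome 10 of GRCm39 from 76888013 to 77002351. It was at 1249, 1129.6, 1098 and 1159 CPM in the female CRE- mice, replicates 1 to 4, and 986, 848, 876 and 886 CPM in the female LKO mice. Here too every LKO mouse lay below every CRE- mouse, at a smaller distance, and the log2 fold change of -0.37 (SE 0.18) had an adjusted p of 0.250 by the same edgeR test and Benjamini-Hochberg adjustment. The same female groups did not overlap in the sum of the hepatocyte markers (118530.0, 109882, 114175 and 132449 CPM in CRE- and 55771, 90144, 89662 and 70832 CPM in LKO mice), and its part in the Col18a1 values was not tested. Col18a1 shares 896 exon bases with Slc19a1 on the opposite strand, and the counting used the strand. Whether the library kit matches the reverse-strand setting of that counting was not tested.

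Among the fibrillar collagens, 1 of 9 tested rose and none fell, beside 2.09% and 2.15% of all genes, with a median log2 fold change of 0.43 and 8 of 9 above 0. Col1a1, a chain of type I collagen, was at 16.4, 9.69, 16.9 and 26.1 CPM in the female CRE- mice, replicates 1 to 4, and 55, 17.4, 24.4 and 37.3 CPM in the female LKO mice. Its partner Col1a2 was at 21.5, 13.9, 23.5 and 32.8 CPM in the female CRE- mice, replicates 1 to 4, and 59.8, 21.4, 31.9 and 33.3 CPM in the female LKO mice. LKO replicate 1 was the highest mouse for both, and LKO replicates 2 and 3 lay among the CRE- mice. Col3a1, the collagen of reticular fibres, was at 47.2, 38.4, 55.1 and 66.8 CPM in the female CRE- mice, replicates 1 to 4, and 109, 47.8, 69.9 and 51.9 CPM in the female LKO mice. Only LKO replicates 1 and 3 exceeded every CRE- mouse. The log2 fold changes of Col1a1, Col1a2 and Col3a1 were 0.96 (SE 0.46), 0.68 (SE 0.36) and 0.43 (SE 0.36), with adjusted p of 0.236, 0.299 and 0.546 by edgeR's quasi-likelihood F test, Benjamini-Hochberg adjusted. Without LKO replicate 1 they were 0.63, 0.36 and 0.15.

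The type V chains set the width of type I fibrils. Col5a1 was at 9.45, 11.4, 11.8 and 11.2 CPM in the female CRE- mice, replicates 1 to 4, and 25.2, 9.17, 9.40 and 9.83 CPM in the female LKO mice. LKO replicate 1 was far above the other mice, and the other LKO mice lay close to the lowest CRE- mouse. Col5a2 was at 5.86, 3.72, 4.79 and 5.29 CPM in the female CRE- mice, replicates 1 to 4, and 12.6, 13, 7.85 and 31.4 CPM in the female LKO mice. Every LKO mouse was above every CRE- mouse, and LKO replicate 4 was highest. The log2 fold changes of Col5a1 and Col5a2 were 0.29 (SE 0.39) and 1.72 (SE 0.64), with adjusted p of 0.727 and 0.123 by edgeR's quasi-likelihood F test, Benjamini-Hochberg adjusted. The value of Col5a1 was -0.19 without LKO replicate 1 and -0.17 in limma-voom with sample weights, and that of Col5a2 was 1.18 without LKO replicate 4. Col11a2, a type XI chain best known from cartilage, lies on chromosome 17 of GRCm39 from 34257462 to 34285659. It was at 1.11, 0.779, 0.718 and 0.428 CPM in the female CRE- mice, replicates 1 to 4, and 7.53, 0.997, 3.88 and 2.31 CPM in the female LKO mice, from 16 to 299 reads per library. LKO replicates 1, 3 and 4 exceeded every CRE- mouse, and LKO replicate 2 lay just under the highest of them. Col11a2 rose (log2 fold change 2.27, SE 0.54, adjusted p = 0.0308, edgeR's quasi-likelihood F test, Benjamini-Hochberg adjusted). In that edgeR test the Benjamini-Hochberg adjusted p was 0.0988, 0.0900 and 0.0834 without female CRE- replicate 2, 3 and 4, and 0.0989 without LKO replicate 1, where the log2 fold change was 1.68. The other fibrillar collagens tested, Col5a3, Col24a1 and Col27a1, had log2 fold changes of 0.26, 0.26 and -0.23.

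None of the 6 basement membrane collagens passed edgeR's test in females, 2 had an unadjusted p under 0.05, and DESeq2 and limma-voom called 0. The shares of all genes were 4.24%, 21.4%, 10.8% and 11.8%, and the median log2 fold change of the class was -0.09. Col4a1 and Col4a2 are the chains of the common type IV network. Col4a1 was at 35.1, 41.1, 36.3 and 42.7 CPM in the female CRE- mice, replicates 1 to 4, and 137, 31.6, 37.3 and 167 CPM in the female LKO mice. Col4a2 was at 25.4, 24.6, 23.5 and 30.5 CPM in the female CRE- mice, replicates 1 to 4, and 90.6, 26.7, 23.6 and 96 CPM in the female LKO mice. In LKO replicates 1 and 4 both chains were far above all other females, and LKO replicates 2 and 3 lay within or close to the range of the CRE- mice. Their log2 fold changes were 1.26 (SE 0.51) and 1.19 (SE 0.48), with adjusted p of 0.158 and 0.159 by edgeR's quasi-likelihood F test, Benjamini-Hochberg adjusted. Without LKO replicate 4 they were 0.81 and 0.84, and with sample weights in limma-voom 0.34 and 0.40. The chains of more restricted basement membranes, Col4a3, Col4a4, Col4a5 and Col4a6, reached at most 4.14 CPM in any library and had log2 fold changes between -0.95 and 0.33.

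The beaded filament collagens of type VI surround cells and tie basement membranes to fibrils. None of 5 tested passed edgeR's test in females, 1 had an unadjusted p under 0.05, DESeq2 called 0 and limma-voom 2, beside 4.24%, 21.4%, 10.8% and 11.8% of all genes, and the median log2 fold change was 0.64 with all 5 above 0. Col6a1 was at 13.8, 11.8, 11.7 and 12.8 CPM in the female CRE- mice, replicates 1 to 4, and 19, 14.9, 24 and 20.4 CPM in the female LKO mice. Each LKO mouse was above each CRE- mouse. Col6a2 was at 9.63, 6.77, 8.33 and 8.61 CPM in the female CRE- mice, replicates 1 to 4, and 11.3, 9.10, 17.9 and 12.5 CPM in the female LKO mice. Col6a3 was at 13.7, 8.80, 12.6 and 13.1 CPM in the female CRE- mice, replicates 1 to 4, and 22.6, 13.1, 14.2 and 11.9 CPM in the female LKO mice. For Col6a2, LKO replicate 2 lay among the CRE- mice, and for Col6a3 so did LKO replicates 2 and 4. The log2 fold changes of the 3 chains were 0.64 (SE 0.32), 0.61 (SE 0.29) and 0.36 (SE 0.36), with adjusted p of 0.264, 0.231 and 0.620 by edgeR's quasi-likelihood F test, Benjamini-Hochberg adjusted. In limma-voom with sample weights Col6a1 and Col6a2 had adjusted p of 0.0314 and 0.0273. Col6a5 was at 4.17 CPM in LKO replicate 3 and at most 0.577 CPM in the other females. Col6a6 reached at most 0.856 CPM in any female.

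Of 6 fibril-associated collagens, which coat the surface of fibrils, 1 rose in females, beside 2.09% of all genes, and the median log2 fold change was 0.50. Col22a1, known from tissue junctions such as that of muscle and tendon, lies on chromosome 15 of GRCm39 from 71667644 to 71906087. It had 6, 6, 2 and 0 reads in the female CRE- mice and 4, 84, 22 and 114 reads in the female LKO mice, replicates 1 to 4, or 0.133, 0.117, 0.0479 and 0 CPM and 0.101, 2.09, 0.402 and 3.30 CPM. LKO replicates 2, 3 and 4 were above every CRE- mouse, and LKO replicate 1 was among them. The log2 fold change was 4.21 (SE 1.14, adjusted p = 0.0483, edgeR's quasi-likelihood F test, Benjamini-Hochberg adjusted). The call was lost in 11 of the 16 fits with 1 library left out, and the adjusted p in these edgeR tests reached 0.136 without female CRE- replicate 3. Col14a1, which binds type I fibrils, lies on chromosome 15 of GRCm39 from 55171040 to 55384199 and was at 63.1, 72, 75.1 and 112 CPM in the female CRE- mice, replicates 1 to 4, and 146, 54.2, 73.5 and 34.3 CPM in the female LKO mice. The groups overlapped throughout, and LKO replicates 1 and 4 were the highest and the lowest of the 8 females. Its log2 fold change of -0.07 (SE 0.45) had an adjusted p of 0.957 by the same edgeR test and Benjamini-Hochberg adjustment, and it was above 0 without female CRE- replicate 4 (0.14), LKO replicate 2 (0.07) or LKO replicate 4 (0.17). Col9a3, Col12a1, Col16a1 and Col20a1 had log2 fold changes of 0.77, 1.02, -0.48 and 0.24. Col9a3 did not overlap between the groups, at 0.160 to 0.287 CPM in CRE- mice and 0.299 to 0.478 CPM in LKO mice. Its reads were 12, 12, 12 and 6 in CRE- and 19, 12, 24 and 14 in LKO mice, so the groups met at 12 reads and were parted by scaling alone.

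No network-forming, anchoring or membrane collagen passed edgeR's test in females. Of the 3 membrane collagens, which have a short part inside the cell, 1 had an unadjusted p under 0.05, DESeq2 called 1 and limma-voom 0. Over all genes edgeR called 4.24%, 21.4% had an unadjusted p under 0.05, and DESeq2 and limma-voom called 10.8% and 11.8%. The median log2 fold change of the membrane collagens was -0.76. Col25a1, known from neurons and muscle innervation, lies on chromosome 3 of GRCm39 from 129973992 to 130393533. It had 62, 8, 1 and 0 reads in the female CRE- mice and 2, 0, 0 and 0 reads in the female LKO mice, or 1.38, 0.156, 0.0239 and 0 CPM and 0.0503, 0, 0 and 0 CPM. Most of the CRE- reads came from replicate 1, and CRE- replicate 4 had none. The 71 reads of the CRE- group against 2 of the LKO group gave a ratio of 34.2. Since both mates of a pair were counted, its 95% counting interval, from 35.5 against 1 pairs, is 5.75 to 1387, which leaves out the spread between mice. The edgeR test with Benjamini-Hochberg adjustment gave an adjusted p of 0.0965, and of 0.445 without CRE- replicate 1. Col13a1, a membrane collagen of cell adhesion sites and the neuromuscular junction, was at 3.86, 8.0, 5.79 and 8.13 CPM in the female CRE- mice, replicates 1 to 4, and 3.57, 8.28, 3.15 and 2.26 CPM in the female LKO mice. LKO replicate 2 was the highest female and the other LKO mice were the lowest, with a log2 fold change of -0.58 (SE 0.48) and an adjusted p of 0.534 by edgeR's quasi-likelihood F test, Benjamini-Hochberg adjusted. Col23a1 had a log2 fold change of -0.76. The network-forming Col8a1 and Col8a2, at 0.69 and -0.25, and the anchoring fibril collagen Col7a1, at 1.26, had no unadjusted p under 0.05, and DESeq2 and limma-voom called 0 of these. Col26a1 and Col28a1, which belong to none of these classes, had too few reads for a test.

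In male LKO mice no collagen passed the test. Col1a1, Col1a2, Col3a1, Col5a1, Col6a1, Col6a2, Col6a3 and Col14a1 had log2 fold changes below 0, which lay nearer 0 without CRE- replicate 3, and Col5a2, Col13a1 and Col22a1 were above 0. With edgeR's quasi-likelihood F test, Benjamini-Hochberg adjusted, 0 of 34 collagens had an adjusted p under 0.05, against 0.454% of all genes tested. At an unadjusted p under 0.05 there were 8 (23.5%), against 9.53% of all genes, 3 above 0 and 5 below. DESeq2 called 2, Col13a1 and Col22a1, and 2.02% of all genes, and limma-voom with sample weights called 1, Col25a1, and 0.884% of all genes. The groups did not overlap for 4 collagens (11.8%), Col13a1, Col14a1, Col22a1 and Col25a1, against 6.49% of all genes. Col22a1 reached 10 reads in LKO libraries alone, and Col25a1 passed the count filter mainly through CRE- libraries. The place of these genes among the 4 thus depends on the group where they were high. The median log2 fold change was -0.29, and -0.01 over all genes, with 12 collagens above 0 and 22 below. The count at an unadjusted p under 0.05 was 4 without CRE- replicate 3, 5 without LKO replicate 3 or 4, and 12 without LKO replicate 1, when Col1a1, Col1a2, Col3a1 and Col6a1 were among them. The share of all genes at an unadjusted p was not counted in these fits, so this range is not read as particular to collagens. With any library left out 0 collagens passed edgeR's test. Of all genes 0.152% (without CRE- replicate 3) to 0.652% (without female LKO replicate 1) passed.

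None of the 9 fibrillar collagens tested passed edgeR's test in males, 2 had an unadjusted p under 0.05, and DESeq2 and limma-voom called 0. The shares of all genes were 0.454%, 9.53%, 2.02% and 0.884%, and the median log2 fold change of the class was -0.30. Col1a1 was at 16.2, 9.49, 37.3 and 23.2 CPM in the male CRE- mice, replicates 1 to 4, and 24.2, 12.7, 10.9 and 6.59 CPM in the male LKO mice. Col1a2 was at 25.6, 17.2, 48.7 and 31.2 CPM in the male CRE- mice, replicates 1 to 4, and 33.3, 17.7, 17 and 14.8 CPM in the male LKO mice. Col3a1 was at 44.8, 33.6, 103 and 48.8 CPM in the male CRE- mice, replicates 1 to 4, and 65, 34.4, 37.5 and 23.3 CPM in the male LKO mice. For all 3 genes CRE- replicate 3 was the highest male, LKO replicate 4 was the lowest, and the groups overlapped. Their log2 fold changes were -0.66 (SE 0.45), -0.57 (SE 0.36) and -0.52 (SE 0.36), with adjusted p of 0.683, 0.661 and 0.686 by edgeR's quasi-likelihood F test, Benjamini-Hochberg adjusted. Without CRE- replicate 3 they were -0.28, -0.27 and -0.10, and without LKO replicate 1 they were -1.11, -0.91 and -0.88.

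Col5a1 was at 13.3, 9.04, 34 and 12.3 CPM in the male CRE- mice, replicates 1 to 4, and 10.4, 9.49, 8.07 and 5.08 CPM in the male LKO mice. CRE- replicate 3 was again far above the rest. Col5a2 was at 4.24, 1.83, 7.64 and 4.25 CPM in the male CRE- mice, replicates 1 to 4, and 7.23, 3.98, 33.9 and 3.54 CPM in the male LKO mice. LKO replicate 3 was far above every other male. Col11a2 was at 2.68, 0.802, 1.25 and 2.07 CPM in the male CRE- mice, replicates 1 to 4, and 2.47, 1.17, 1.79 and 1.65 CPM in the male LKO mice, with the groups intermixed. The log2 fold changes of Col5a1, Col5a2 and Col11a2 were -1.05 (SE 0.40), 1.44 (SE 0.63) and 0.05 (SE 0.51), with adjusted p of 0.374, 0.475 and 0.985 by edgeR's quasi-likelihood F test, Benjamini-Hochberg adjusted. Col5a1 was at -0.50 without CRE- replicate 3, and Col5a2 at 1.81 without CRE- replicate 3 and at 0.13 without LKO replicate 3. Col11a2 was at -0.25 in limma-voom with sample weights, and between -0.18 and 0.35 with 1 library left out. Col5a3, Col24a1 and Col27a1 had log2 fold changes of -0.17, -0.30 and -0.14.

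None of the 6 basement membrane collagens passed edgeR's test in males, 0 had an unadjusted p under 0.05, and DESeq2 and limma-voom called 0. The shares of all genes were 0.454%, 9.53%, 2.02% and 0.884%, and the median log2 fold change of the class was 0.27. Col4a1 was at 24.8, 35, 119 and 35.7 CPM in the male CRE- mice, replicates 1 to 4, and 36.1, 28.2, 43.8 and 29.4 CPM in the male LKO mice. Col4a2 was at 14.9, 21.4, 73.8 and 22.7 CPM in the male CRE- mice, replicates 1 to 4, and 25.6, 18.6, 28.1 and 25.3 CPM in the male LKO mice. Apart from CRE- replicate 3, which stood far above, the ranges overlapped. Their log2 fold changes were -0.64 (SE 0.50) and -0.44 (SE 0.48), with adjusted p of 0.725 and 0.800 by edgeR's quasi-likelihood F test, Benjamini-Hochberg adjusted. Without CRE- replicate 3 they were 0.10 and 0.30, on the other side of 0, and limma-voom with sample weights gave 0.14 for Col4a2. Of 5 beaded filament collagens none passed edgeR's test in males, 2 had an unadjusted p under 0.05 (beside 9.53% of all genes), and DESeq2 and limma-voom called 0. These 2, Col6a2 and Col6a3, were no longer under 0.05 without CRE- replicate 3. The median of the 5 was -0.63.

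Col6a1 was at 13.2, 8.93, 36.1 and 14.6 CPM in the male CRE- mice, replicates 1 to 4, and 17, 11.7, 10.6 and 10.4 CPM in the male LKO mice. Col6a2 was at 9.25, 6.82, 18.4 and 10.3 CPM in the male CRE- mice, replicates 1 to 4, and 9.72, 7.54, 5.96 and 5.70 CPM in the male LKO mice. Col6a3 was at 18.3, 9.31, 39 and 13 CPM in the male CRE- mice, replicates 1 to 4, and 15.5, 9.87, 11.9 and 7.51 CPM in the male LKO mice. CRE- replicate 3 was the highest male for all 3 chains, and the other CRE- mice overlapped the LKO mice. The log2 fold changes were -0.55 (SE 0.32), -0.63 (SE 0.29) and -0.83 (SE 0.36), with adjusted p of 0.625, 0.503 and 0.470 by edgeR's quasi-likelihood F test, Benjamini-Hochberg adjusted. Without CRE- replicate 3 they were close to 0, -0.30 and -0.29. The multiplexins Col15a1 and Col18a1 did not pass edgeR's test in males, 0 had an unadjusted p under 0.05 and DESeq2 and limma-voom called 0. Over all genes these shares were 0.454%, 9.53%, 2.02% and 0.884%. Col15a1 was at 13.3, 11.4, 13.7 and 13.1 CPM in the male CRE- mice, replicates 1 to 4, and 11.7, 9.62, 8.0 and 12.6 CPM in the male LKO mice. Col18a1 was at 928, 989, 1334 and 1014 CPM in the male CRE- mice, replicates 1 to 4, and 735, 978, 1204 and 1005 CPM in the male LKO mice. The groups overlapped for both, with log2 fold changes of -0.29 (SE 0.18) and -0.12 (SE 0.18) and adjusted p of 0.653 and 0.860 by edgeR's quasi-likelihood F test, Benjamini-Hochberg adjusted.

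Of the 6 fibril-associated collagens none passed edgeR's test in males, 2 had an unadjusted p under 0.05, DESeq2 called 1 and limma-voom 0. The shares of all genes were 0.454%, 9.53%, 2.02% and 0.884%, and the median of the class was -0.04. Col14a1 was at 61.7, 66.9, 259 and 70.5 CPM in the male CRE- mice, replicates 1 to 4, and 60.7, 50.9, 43.5 and 41.4 CPM in the male LKO mice. Every LKO mouse was below every CRE- mouse, though LKO replicate 1 was just under CRE- replicate 1, and CRE- replicate 3 was far above all others. The log2 fold change was -1.22 (SE 0.46, adjusted p = 0.372, edgeR's quasi-likelihood F test, Benjamini-Hochberg adjusted), and -0.45 without CRE- replicate 3. Col22a1 had 2, 0, 0 and 0 reads in the male CRE- mice and 2, 8, 42 and 8 reads in the male LKO mice, or 0.0406, 0, 0 and 0 CPM and 0.0514, 0.167, 1.04 and 0.216 CPM. Each LKO mouse had reads, and 3 of 4 CRE- mice had none. The 60 reads of the LKO group against 2 of the CRE- group gave a ratio of 32.4 with a 95% counting interval, from 30 against 1 pairs of mates, of 5.38 to 1321, and the adjusted p by edgeR's quasi-likelihood F test, Benjamini-Hochberg adjusted was 0.195. Without LKO replicate 3, which held 42 of the 60 reads, the edgeR test with Benjamini-Hochberg adjustment gave an adjusted p of 0.505. DESeq2 called Col22a1 in males with an adjusted p of 0.0306 after Benjamini-Hochberg adjustment.

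Of the 3 membrane collagens none passed edgeR's test in males, 2 had an unadjusted p under 0.05, and DESeq2 and limma-voom called 1 each. The shares of all genes were 0.454%, 9.53%, 2.02% and 0.884%, and the median of the class was -0.15. Col13a1 lies on chromosome 10 of GRCm39 from 61674013 to 61814985. It was at 1.79, 3.76, 0.572 and 3.82 CPM in the male CRE- mice, replicates 1 to 4, and 8.70, 5.29, 8.10 and 8.29 CPM in the male LKO mice. Every LKO mouse was above every CRE- mouse. The log2 fold change was 1.61 (SE 0.49, adjusted p = 0.220, edgeR's quasi-likelihood F test, Benjamini-Hochberg adjusted), between 1.27 and 1.89 with 1 library left out, and DESeq2 called it with a Benjamini-Hochberg adjusted p of 0.0396. Col25a1 had 163, 22, 26 and 72 reads in the male CRE- mice and 12, 2, 0 and 3 reads in the male LKO mice, or 3.31, 0.490, 0.676 and 1.62 CPM and 0.309, 0.0416, 0 and 0.0810 CPM. All LKO mice were below all CRE- mice, and CRE- replicate 1 held most of the reads. The log2 fold change was -3.81 (SE 1.27, adjusted p = 0.295, edgeR's quasi-likelihood F test, Benjamini-Hochberg adjusted), and limma-voom called it with a Benjamini-Hochberg adjusted p of 0.0374. With 1 library left out it ran from -5.18, without LKO replicate 1, to -3.10, without CRE- replicate 1. Col8a1, Col8a2, Col7a1 and Col23a1 had log2 fold changes of -0.66, 0.54, -0.30 and -0.15, and 0 of them had an unadjusted p under 0.05 or was called by edgeR, DESeq2 or limma-voom.

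**Figure D3:**
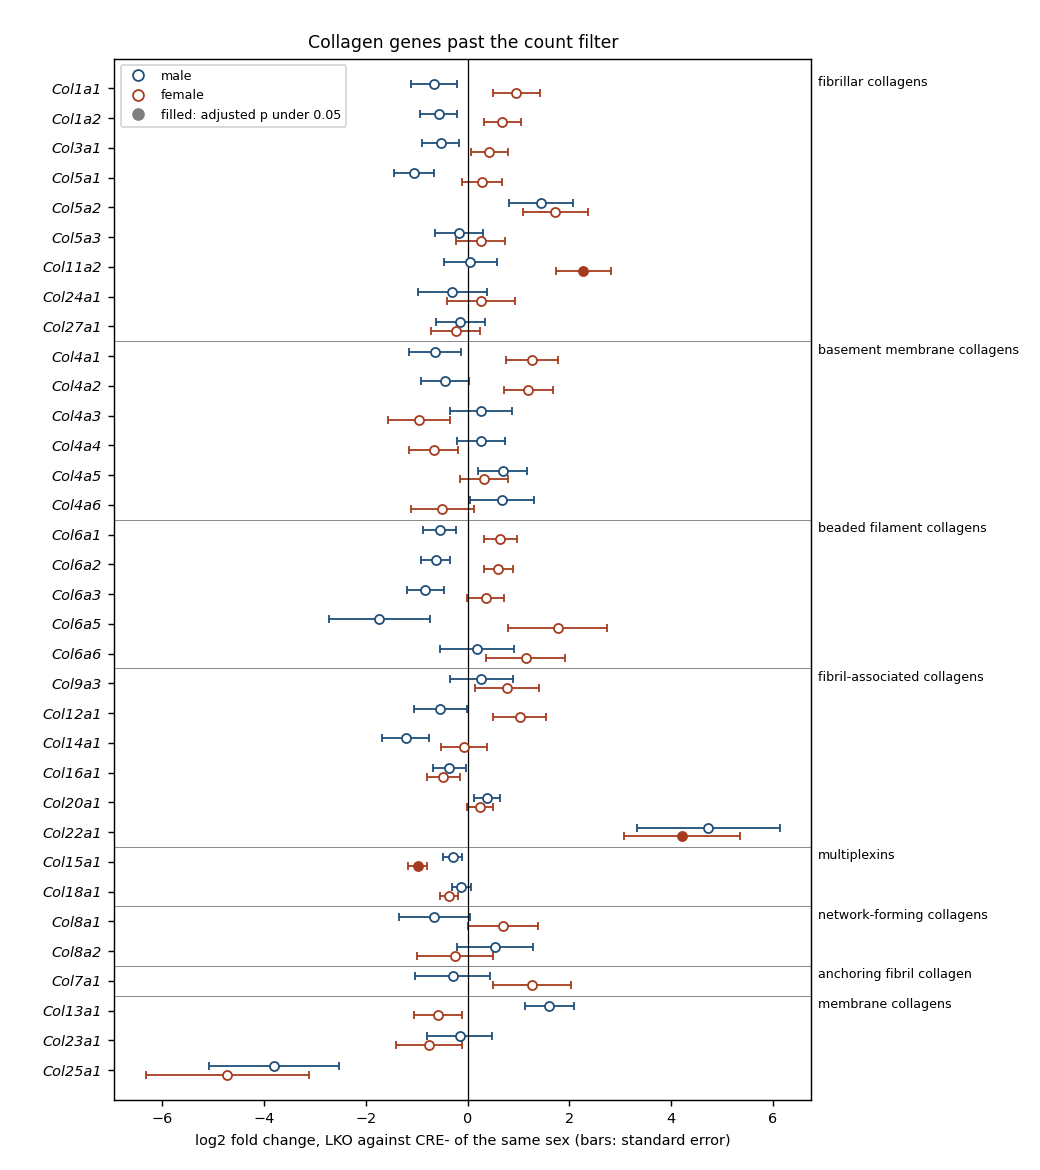
Fitted log2 fold change (edgeR, bars: standard error) of LKO against CRE- mice in males and in females for the 34 collagens tested, grouped by class, with filled points for an adjusted p under 0.05. Only Col11a2, Col22a1 and Col15a1 in females are filled, and the values of Col22a1 in males and Col25a1 in females rest on a group with 2 reads in all.

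The LKO effect was also compared between the sexes, since a call in females alone does not show a difference. By edgeR's quasi-likelihood F test, Benjamini-Hochberg adjusted, 0 of 34 collagens and 0.0% of all genes had an adjusted p under 0.05 for this difference. At an unadjusted p under 0.05 there were 13 collagens (38.2%), against 16% of all genes, 11 with a more positive effect in females and 2, Col13a1 and Col15a1, with a more negative one, and DESeq2 and limma-voom called 0, beside 2.22% and 0.173% of all genes. The median difference was 0.53 in log2 over the collagens and 0.04 over all genes. Without male CRE- replicate 3 the 13 became 4, and without female LKO replicate 1 they became 8, with no share of all genes counted in these fits. Among the called genes, the differences were -0.69 for Col15a1, 2.22 for Col11a2 and -0.53 for Col22a1, with adjusted p of 0.242, 0.213 and 0.876 in that edgeR test. Col13a1 had a difference of -2.19, Col4a1 of 1.90 and Col1a1 of 1.62, with adjusted p of 0.201, 0.241 and 0.254 by the same edgeR test and Benjamini-Hochberg adjustment. Without male CRE- replicate 3 the difference for Col4a1 was 1.17 and for Col1a1 1.24. This contrast uses the same mice as the comparisons within each sex.

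Between the sexes without the knockout, female CRE- mice had 0 collagens past an adjusted p of 0.05 against male CRE- mice by edgeR's quasi-likelihood F test, Benjamini-Hochberg adjusted, where 0.92% of all genes passed. At an unadjusted p under 0.05 there were 5 (14.7%), Col6a6, Col11a2, Col13a1, Col15a1 and Col27a1, against 12.7% of all genes, and the median was -0.34 against -0.01. DESeq2 called 2, Col15a1 and Col27a1, and 3.04% of all genes, and limma-voom 2, Col15a1 and Col25a1, and 1.97% of all genes. With 1 library left out the count at an unadjusted p under 0.05 ran from 3, without male CRE- replicate 1 or female CRE- replicate 3, to 9, without male CRE- replicate 2. The share of all genes was not counted in these fits. Col15a1 was at 13.3, 11.4, 13.7 and 13.1 CPM in male and 22.2, 21.1, 20.2 and 19.5 CPM in female CRE- mice. All female controls were above all male controls, while the female LKO mice, at 7.52 to 13.5 CPM, overlapped the male range. The log2 difference was 0.69 (SE 0.18, adjusted p = 0.103, edgeR's quasi-likelihood F test, Benjamini-Hochberg adjusted). Col27a1, a fibrillar collagen of cartilage, was at 36.8, 53.5, 84.1 and 29.8 CPM in male and 11.5, 22.8, 19 and 11.1 CPM in female CRE- mice, with no overlap (chosen after its values were seen). Its log2 difference was -1.66 (SE 0.49, adjusted p = 0.149, edgeR with Benjamini-Hochberg adjustment), and with 1 library left out it passed in 1 of 16 fits, without female LKO replicate 4 (adjusted p = 0.0490), and was weakest without male CRE- replicate 3 (log2 difference -1.33, adjusted p = 0.397, the same edgeR test). In LKO mice Col27a1 was at 17, 66, 41.1 and 60.8 CPM in males and 15.1, 16.7, 19.5 and 3.38 CPM in females, so the lower female level was seen in both genotypes except for male LKO replicate 1. The female CRE- mice are shared with the comparison of female LKO mice.

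Genes that make, crosslink, break down or bind collagen were followed in 8 lists with 98 genes, and 93 had enough reads. In female LKO mice 5 genes of the lists rose and none fell by edgeR's quasi-likelihood F test, Benjamini-Hochberg adjusted, 18 had an unadjusted p under 0.05, and DESeq2 and limma-voom called 11 each. These are 5.38% (edgeR), 19.4% (unadjusted) and 11.8% (DESeq2 and limma-voom) of the 93 genes, beside 4.24%, 21.4%, 10.8% and 11.8% of all genes. In male LKO mice edgeR called 0, 8 (8.60%) had an unadjusted p under 0.05, DESeq2 called 1 (1.075%) and limma-voom 0, beside 0.454%, 9.53%, 2.02% and 0.884% of all genes. The medians of the log2 fold change over the 93 genes were -0.21 in males and 0.22 in females. For the sex difference of the LKO effect edgeR called 0 of 93, 17 (18.3%) had an unadjusted p under 0.05, DESeq2 called 8 (8.60%) and limma-voom 1 (1.075%), beside 16% unadjusted, 2.22% in DESeq2 and 0.173% in limma-voom of all genes. Between male and female CRE- mice edgeR called 1 of the 93 genes (1.075%), DESeq2 3 (3.23%) and limma-voom 1 (1.075%), beside 0.92%, 3.04% and 1.97% of all genes. The edgeR call was the crosslinking enzyme gene Loxl4, chosen after its values were seen, at 1.07 to 1.77 CPM in males and 2.73 to 19.1 CPM in females (log2 difference 2.87, SE 0.56, adjusted p = 0.0199, edgeR's quasi-likelihood F test, Benjamini-Hochberg adjusted). Limma-voom did not call Loxl4.

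Adamts14 encodes a protease that trims the ends of procollagens I and III before they form fibrils. It was at 1.02, 1.34, 1.48 and 0.962 CPM in the female CRE- mice, replicates 1 to 4, and 8.26, 3.59, 5.45 and 2.02 CPM in the female LKO mice. Each LKO mouse was above each CRE- mouse, and Adamts14 rose (log2 fold change 2.0, SE 0.47, adjusted p = 0.0297, edgeR's quasi-likelihood F test, Benjamini-Hochberg adjusted). It belonged to 11 tested genes of procollagen cleavage and crosslinking, with Bmp1 the most abundant per kb and medians of -0.33 in males and 0.14 in females. Mmp8 encodes neutrophil collagenase, which cuts fibrillar collagen. It was at 0.444, 0.545, 0.287 and 0.267 CPM in the female CRE- mice, replicates 1 to 4, and 5.49, 0.898, 1.10 and 10.2 CPM in the female LKO mice. LKO replicates 1 and 4 were far above the other females, and Mmp8 rose (log2 fold change 3.50, SE 0.79, adjusted p = 0.0266, edgeR's quasi-likelihood F test, Benjamini-Hochberg adjusted), or 2.66 without LKO replicate 4 and 1.85 in limma-voom with sample weights. In males it was at 2.01, 0.356, 1.51 and 3.28 CPM in CRE- and 0.309, 0.333, 0.298 and 0.0540 CPM in LKO mice, without overlap, with a log2 fold change of -2.82 and an adjusted p of 0.162 by the same edgeR test and Benjamini-Hochberg adjustment. The medians of its list of 11 collagen breakdown genes, where Ctsb was the most abundant per kb, were -0.23 and -0.01. The highest adjusted p with 1 library left out, in the same edgeR test with Benjamini-Hochberg adjustment, was 0.0874 for Adamts14, without female CRE- replicate 2, and 0.0847 for Mmp8, without female CRE- replicate 3. Without female LKO replicate 1 it was 0.0844 and 0.0560.

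Lair1 encodes an inhibitory receptor of immune cells that binds collagen. It was at 5.01, 3.58, 4.21 and 4.62 CPM in the female CRE- mice, replicates 1 to 4, and 32.4, 8.28, 18.5 and 14.1 CPM in the female LKO mice. All LKO mice were above all CRE- mice, and Lair1 rose (log2 fold change 2.07, SE 0.42, adjusted p = 0.0176, edgeR's quasi-likelihood F test, Benjamini-Hochberg adjusted), a call lost without female CRE- replicate 2, 3 or 4 (adjusted p up to 0.0745 in the same edgeR test). The order of the female LKO mice was the same as in the sum of the macrophage markers (2629, 563, 1347 and 821 CPM), whose part in the Lair1 values was not tested. The 9 collagen receptor genes tested, with Itgb1 the most abundant per kb, had medians of -0.30 in males and 0.75 in females. In the list of 12 genes of the TGF-beta pathway, a main inducer of fibrillar collagens, Tgfbr2 and Ccn2 rose in females. The receptor gene Tgfbr2 was at 20.3, 19.1, 18.4 and 28.5 CPM in the female CRE- mice, replicates 1 to 4, and 65, 29.8, 26 and 60.4 CPM in the female LKO mice. Ccn2, a matrix protein gene induced by TGF-beta, was at 7.21, 5.33, 6.34 and 7.16 CPM in the female CRE- mice, replicates 1 to 4, and 34.2, 12.6, 12.8 and 29 CPM in the female LKO mice. LKO replicates 1 and 4 were highest for both, the mice with the highest Col4a1 and Col4a2. Tgfbr2 and Ccn2 had log2 fold changes of 1.07 (SE 0.28) and 1.77 (SE 0.46), with adjusted p of 0.0431 and 0.0414 by edgeR's quasi-likelihood F test, Benjamini-Hochberg adjusted, and of 0.139 and 0.136 in that edgeR test without female CRE- replicate 2. Without female LKO replicate 1 the log2 fold changes were 0.86 and 1.5, with adjusted p of 0.125 and 0.117, and without LKO replicate 4 the adjusted p were 0.0895 and 0.0770 (edgeR, Benjamini-Hochberg). The list's medians were -0.30 and 0.28, with Tgfb1 the most abundant per kb.

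In the other lists of collagen partners edgeR's test called 0 genes in females, beside 4.24% of all genes. For the counts below, 21.4% of all genes had an unadjusted p under 0.05, and DESeq2 and limma-voom called 10.8% and 11.8%. Of 17 genes of collagen modification and secretion, led per kb by P4hb, 1 had an unadjusted p under 0.05, DESeq2 called 0 and limma-voom 1, with medians of -0.07 and 0.17 in males and females. Of 15 other basement membrane components, led by Nid1, 3 had an unadjusted p under 0.05 and DESeq2 and limma-voom called 1 each, with medians of -0.47 and 0.47. The closest to a call was the laminin gene Lama5, with a log2 fold change of 1.10 and an adjusted p of 0.0563 by edgeR's quasi-likelihood F test, Benjamini-Hochberg adjusted. Of 14 fibril partners, led by Fn1, 1 had an unadjusted p under 0.05, DESeq2 called 1 and limma-voom 0, with medians of -0.06 and 0.13. Of 4 protease inhibitors, led by Timp3, 0 had an unadjusted p under 0.05 and DESeq2 and limma-voom called 0, with medians of -0.15 and 0.16.

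Marker lists of cell types, tissues and proliferation, with 88 genes in all, were summed in each library beside the collagens. The 6 markers of myofibroblasts and smooth muscle, led per kb by Tagln, summed to 25.9, 24.7, 30.5 and 42.7 CPM in female CRE- mice and 66.8, 26, 29.1 and 38.2 CPM in female LKO mice, and in males to 16.5 to 34.2 CPM and 18.7 to 25.5 CPM. The 8 endothelial markers, led by Clec4g, summed to 224, 285, 279 and 280.3 CPM and 413, 291, 272 and 357 CPM in the female groups, and in males to 172 to 271 CPM and 255 to 285 CPM. Female LKO replicates 1 and 4, the females with the highest Col4a1 and Col4a2, also had the highest endothelial sums, while male CRE- replicate 3, the male with the highest Col4a1 and Col4a2, had a sum of 232 CPM, within the range of its group. Of the endothelial genes Cdh5 and Vwf rose in females, with log2 fold changes of 0.79 and 1.15 and adjusted p of 0.0249 and 0.0358 by edgeR's quasi-likelihood F test, Benjamini-Hochberg adjusted, and of 0.0745 and 0.112 without female CRE- replicate 2 and 0.0588 and 0.0911 without female LKO replicate 1. The most abundant, Clec4g, had a log2 fold change of -0.70 in females, and the median of the 8 genes was 0.52. The 6 macrophage markers, led by Clec4f, summed to 480.3, 366, 387 and 604 CPM in female CRE- and 2629, 563, 1347 and 821 CPM in female LKO mice, and the 5 neutrophil markers, led by S100a9, to 26.2, 14.5, 11.6 and 14.5 CPM and 76, 30.7, 48.1 and 483 CPM. Female LKO replicate 1 had the highest macrophage sum and the highest Col1a1, Col3a1 and Col11a2, and LKO replicate 4 the highest neutrophil sum and the highest Mmp8, Col5a2 and Col22a1 of the females, while male LKO replicate 3, with the highest Col5a2 of all mice, had a neutrophil sum of 7.95 CPM. In males these sums were 173 to 764 CPM and 392 to 726 CPM for macrophages, and 7.57 to 116 CPM and 7.67 to 17.8 CPM for neutrophils. Adgre1 and Retnlg from these lists rose in females (log2 fold changes 2.15 and 2.86, adjusted p = 0.0451 and 0.0331, edgeR's quasi-likelihood F test, Benjamini-Hochberg adjusted), but not Adgre1 without female LKO replicate 1 (1.21, adjusted p = 0.189) or Retnlg without female CRE- replicate 2 (adjusted p = 0.115) or LKO replicate 4 (2.04, adjusted p = 0.0833). The part of any of these cells in the collagen values was not tested.

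The 6 proliferation markers, led by Top2a, summed to 9.60, 8.20, 4.88 and 17.5 CPM in female CRE- mice and 78.6, 15.2, 31.8 and 32.5 CPM in female LKO mice, and in males to 5.70 to 21 CPM and 4.97 to 13.8 CPM. Top2a, Ccnb1, Cdk1 and Birc5 rose in females, with log2 fold changes of 2.45, 2.60, 1.72 and 1.63 and adjusted p of 0.0397, 0.0256, 0.0266 and 0.0232 by edgeR's quasi-likelihood F test, Benjamini-Hochberg adjusted. Each of these calls was lost without some library, with adjusted p in the same edgeR test of up to 0.139 for Top2a without female LKO replicate 1, 0.0938 for Ccnb1 and 0.0988 for Cdk1 without female CRE- replicate 2, and 0.0756 for Birc5 without female CRE- replicate 3. Without female LKO replicate 1 those of Ccnb1, Cdk1 and Birc5 were 0.0695, 0.0638 and 0.0655 in that edgeR test. Skeletal muscle markers, 4 genes led by Acta1, summed to 106 and 60.2 CPM in male LKO replicates 3 and 4, 24.1 CPM in female CRE- replicate 4 and 11.3 CPM in female LKO replicate 2, and to at most 4.57 CPM in the others. Male LKO replicate 3 was also the male with the highest Col5a2 and Col22a1, a collagen of muscle junctions. Col22a1 was likewise highest in female LKO replicate 4, where the muscle sum was 0.463 CPM. Pancreatic acinar markers, 4 genes led by Cela1 with Amy2a5 without reads, summed to 279 CPM in female CRE- replicate 2 and 74.4 CPM in male CRE- replicate 2, and to at most 28.3 CPM in the others. The part of muscle or pancreas tissue in the collagen values was not tested.

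For the remaining lists the sums are given as ranges in male CRE-, male LKO, female CRE- and female LKO mice. The 7 portal fibroblast markers, led by Thy1, had 8.06 to 20.2, 12.5 to 14.8, 13 to 21.9 and 16.8 to 20.8 CPM, the 6 cholangiocyte markers, led by Spp1, 43.6 to 101, 72.3 to 90.4, 53.3 to 118 and 66.8 to 147 CPM, and the 5 mesothelial markers, led by Gpm6a, 2.45 to 7.41, 2.92 to 7.67, 4.06 to 7.25 and 2.90 to 4.86 CPM. The 6 markers of T and NK cells, led by Nkg7, had 4.58 to 14.7, 5.08 to 21.3, 6.27 to 19.3 and 9.52 to 19.6 CPM, and the 5 of B and plasma cells, led by Jchain, 39.7 to 66.3, 33.8 to 57.3, 26.1 to 54.1 and 19.2 to 122 CPM. The 4 adipocyte markers, led by Cidec, had 27.4 to 80, 16.7 to 80.9, 2.92 to 4.44 and 0.983 to 6.88 CPM. Over all marker lists, with 83 of 88 genes tested and hepatocytes included, 8 rose and none fell in female LKO mice, 28 had an unadjusted p under 0.05, and DESeq2 and limma-voom called 22 and 17. These are 9.64%, 33.7%, 26.5% and 20.5% of the 83 genes, beside 4.24%, 21.4%, 10.8% and 11.8% of all genes. In male LKO mice edgeR called 0, 13 (15.7%) had an unadjusted p under 0.05, DESeq2 called 3 (3.61%) and limma-voom 0, beside 0.454%, 9.53%, 2.02% and 0.884% of all genes.

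The promoter of Col3a1, the most abundant fibrillar collagen per exon length, is shown because its 250 bases ended at the deposited start of the gene and held no annotated exon. It is chr1:45350448-45350697 of GRCm39 on the plus strand, read 5′ to 3′, from RefSeq, whose build GRCm38.p6 was placed in GRCm39 by exact match. Capitals mark the motif TATAAA, which, searched on both strands, was found in 12.4% of 32851 promoters of 250 bases. The motifs CCAAT and GGGCGG, searched the same way and found in 33.8% and 32.7% of promoters, are not in this stretch. A motif match describes the sequence and shows neither a bound site nor a cause of a change. Of the 17 collagens given in full, 13 had a promoter entry, and Col1a1, Col5a2, Col14a1 and Col22a1 had none.
Col3a1: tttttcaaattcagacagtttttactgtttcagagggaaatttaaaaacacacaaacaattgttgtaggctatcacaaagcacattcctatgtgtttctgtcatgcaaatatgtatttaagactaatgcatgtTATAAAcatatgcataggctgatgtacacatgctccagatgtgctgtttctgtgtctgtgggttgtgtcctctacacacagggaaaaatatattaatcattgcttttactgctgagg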

How the data were processed

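Poly-A selected liver RNA of 16 mice was sequenced as 150 base paired ends. Alignment by the authors used STAR 2.7.1a and GRCm39. The authors deposited a count of reads for each gene and library, made with featureCounts of Subread 2.0.6 on the reverse strand, in which both mates count. From these counts, edgeR 4.0.16 in R 4.3.3 fitted 4 groups jointly, with its filter at a minimum count of 10, trimmed mean normalization, the quasi-likelihood F test and Benjamini-Hochberg adjustment over 16742 genes, and calls at an adjusted p under 0.05. The contrasts were LKO against CRE- in each sex, the difference between these, and female against male CRE-. CPM values use the normalized library sizes. DESeq2 1.42.0, limma-voom with sample weights (limma 3.58.1), other filters and scaling, each sex alone and fits without 1 library were the alternatives.

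The collagens and gene lists were chosen with earlier results of these data known. Values of every mouse were given for 13 main liver collagens, for each collagen with an adjusted p under 0.05 and for the 3 with the smallest p in males and in females. Genes of other lists were named where called in female LKO mice, most abundant per kb or among the 2 smallest in p. Between female and male CRE- mice the marker genes Krt19 and Cidec were called beside Loxl4 (adjusted p = 0.0300 and 0.000167, edgeR's quasi-likelihood F test, Benjamini-Hochberg adjusted). Counting intervals of the ratios were computed over pairs of mates, as reads divided by 2, and cover counting error alone. The scripts were tested on simulated data. Apart from Gcgr, genes outside the collagens and these lists were used only for the shares and medians over all genes.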

Additional observations from a re-analysis of the deposited data

Results flagged for a closer look

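Among 68 groups of 4 values, from the 17 collagens given in full, 11 values from 6 mice lay far from the other 3 of their group. For normally spread values chance alone gives about 1 in 20 groups, a rate that does not hold where reads came from a single mouse of a group, nor for genes chosen by a small p. Male CRE- replicate 3 lay above its group for Col4a1 (119 CPM), Col4a2 (73.8 CPM), Col5a1 (34.0 CPM) and Col14a1 (259 CPM). Female LKO replicate 1 lay above its group for Col5a1 (25.2 CPM) and was the only mouse of its group with reads of Col25a1 (0.0503 CPM). Male LKO replicate 3 lay above its group for Col5a2 (33.9 CPM) and Col22a1 (1.04 CPM), and male LKO replicate 1 for Col1a2 (33.3 CPM). Female CRE- replicate 1 lay above its group for Col25a1 (1.38 CPM), and male CRE- replicate 1 was the only mouse of its group with reads of Col22a1 (0.0406 CPM). As several values came from the same mouse, the 11 are not independent of each other. What set these mice apart was not tested.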

How the results depend on the processing

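Over the 7 alternatives with all libraries, most log2 fold changes that were followed kept their direction and their side of the threshold. Those followed were of the 17 collagens given in full, Gcgr and the genes of other lists called in females. Col6a6 and Col27a1 were followed between female and male CRE- mice only, and the other collagens were not. The count of collagens called in female LKO mice was 3, and it was 5 in DESeq2, 6 in limma-voom, 2 with a filter of 10 counts in every library, which left 21 collagens, and 0 with each sex fitted alone. In male LKO mice it was 0 in edgeR (8 with an unadjusted p under 0.05), 2 in DESeq2 and 1 in limma-voom. Between female and male CRE- mice it was 0 in edgeR (5 with an unadjusted p under 0.05), 2 in DESeq2 and 2 in limma-voom. With a replicate block, 3 collagens were called in females and 0 in males: Col22a1 lost its call (adjusted p = 0.0956) and Col25a1 gained it (adjusted p = 0.0420), while 1244 of all genes were called in females, against 710 (edgeR, Benjamini-Hochberg). For LKO and CRE- mice with the same number, replicates 1 to 4, the correlations for this block were 0.17, 0.17, 0.144 and -0.013 in males and 0.173, 0.105, 0.117 and 0.0281 in females. The labels name no shared litter or batch, and the numbers were not taken to pair the mice. In the deposited column names male CRE- replicate 4 and female LKO replicates 3 and 4 carry other numbers than these. The pairs with those mice thus do not test pairing by the column names. By these names female CRE- replicate 4 shares its number with female LKO replicate 3, with a correlation of -0.0178. Whether mice were paired was not settled. Limma-voom changed the sign of Col4a2 in males (0.14), Col5a1 in females (-0.17) and Col11a2 in males (-0.25). With 1 library left out, the log2 fold change ran from -0.89 to 0.10 for Col4a1 and from -0.70 to 0.30 for Col4a2 in males, from -0.19 to 0.43 for Col5a1 in females, from -0.18 to 0.35 for Col11a2 in males and from -0.56 to 0.17 for Col14a1 in females. The cause was not tested for these. With 4 mice per group and fewer than 10 reads in many libraries, values of Col22a1 and Col25a1 rest on few reads. Each passed the count filter mainly through the genotype where it was higher.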
